A study of Homo sapiens with 24 samples.

Results

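FOXRED1 and 9 further assembly factors of mitochondrial complex I were followed across 4 RNA-seq experiments on OE33 cells, a human line derived from an adenocarcinoma of the esophagus. The 9 were NDUFAF1, NDUFAF2, NDUFAF3, NDUFAF4, NDUFAF5, NDUFAF6, TMEM126B, ACAD9 and ECSIT. The 10 genes were taken by symbol, each matched 1 Ensembl ID of the 61860 in the count tables, and all 10 passed the filter on low counts in every experiment. The question was whether the other assembly factors followed FOXRED1 when it fell, or rose in its place.

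Each experiment held a treated and a control group with 3 libraries each, 24 libraries in all. In the xenograft experiment, OE33 cells were grown subcutaneously for 3 weeks in male BALB/c nude mice, which were bought at 4 weeks of age and had been fed for 8 weeks before injection on the normal diet (ND) or on one high in fat (HFD). The study's methods set a body weight, above that of the ND group, for the mice of the HFD group, and the nude host lacks mature T cells. In culture, OE33 cells were transfected for 48 h with HA-TRIM15, a plasmid for the HA-tagged ubiquitin ligase TRIM15, or with empty vector (EV). They were transfected for 72 h with a hairpin plasmid against the transcription factor YY2 (shYY2) or against FOXRED1 (shFOXRED1), each beside its own shControl. All groups are of 1 cell line, and the labels do not tell separate cultures from repeats of 1 culture, so the p-values measure the spread between these samples, which may be technical.

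Complex I is the largest enzyme of the respiratory chain and passes electrons from NADH to ubiquinone. Its Q module, N module and membrane arm are put together from many subunits with the help of assembly factors, which leave before or when the enzyme is complete. FOXRED1 is a flavoprotein of the mitochondrial matrix that is needed in the middle and late steps of this assembly, and its loss causes complex I deficiency in patients. NDUFAF3 and NDUFAF4 bind each other and the early Q module, NDUFAF5 hydroxylates a subunit of that module, and NDUFAF6 also acts early. NDUFAF1, ECSIT, ACAD9 and TMEM126B form the MCIA complex, which builds part of the membrane arm. NDUFAF2 is a chaperone of a late intermediate, to which the N module is added.

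Total counts ranged from 14299807 to 45994561 per library. The 7 markers of columnar epithelium, such as KRT8 and EPCAM, were each at 1 CPM or more in all 24 libraries (CPM, counts scaled to library size with TMM, which sets the libraries of an experiment on a common scale). Of 10 markers of stroma, vessels, leukocytes and fat, COL1A1 alone reached 1 CPM in every library, in culture as in tumors. The summed level of these 10 markers was 24.0 to 27.0 CPM in HFD and 30.7 to 33.8 CPM in ND tumors, 42.7 to 44.1 CPM with shYY2 against 10.7 to 11.4 CPM in its control, and 38.8 to 42.2 CPM with shFOXRED1 against 24.3 to 25.9 CPM in its control. It was 11.1 to 11.9 CPM with HA-TRIM15 and 12.4 to 13.6 CPM with EV. In the tumors and in both knockdown experiments, nearly all of this sum was COL1A1. COL1A1 had group means of 25.5 CPM in HFD and 31.6 CPM in ND tumors. It was at 42.7 CPM with shYY2 (control 10.6 CPM) and at 40.3 CPM with shFOXRED1 (control 24.6 CPM). The part of these markers in the changes below was not tested. The plasmids' own targets moved as labelled. TRIM15 had 111, 130 and 181 counts with HA-TRIM15 and 0 in each EV library, and YY2 fell from 2.35 ± 0.0241 to 0.661 ± 0.0628 CPM with shYY2 (SD, n = 3). YY1, from which YY2 arose and with which it shares sequence, was at 158 ± 2.74 CPM in the shControl libraries and at 158 ± 5.29 CPM with shYY2 (log2 fold change 0.00, edgeR adjusted p = 0.990; YY1 was added after its value was seen).

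FOXRED1 (ENSG00000110074) lies on the plus strand at chr11:126269055-126278131 (GRCh38, GENCODE 29). The study lists 2 hairpins against it, shown here since they define the knockdown. Which of them was used for sequencing is not given in the sources used here. Each targets 21 bases of the coding sequence, written here as the sense strand of the messenger RNA in DNA letters:
shFOXRED1 #1: gcagttctcattgcctgagaa
shFOXRED1 #2: cccgctagttgtcaacatgta
In the transcript with the longest coding sequence (486 codons, 11 exons), the first target covers codons 117 to 124 in exon 3 (chr11:126273013-126273033) and the second codons 425 to 432 in exon 11 (chr11:126277503-126277523). The first is present in 11 and the second in 9 of the 18 annotated FOXRED1 transcripts, and neither has an exact match in a transcript of another gene. Counts were per gene, so transcripts without a target are included.

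Levels of different genes were compared as CPM per kilobase of annotated exon, the union over all transcripts of a gene. For FOXRED1 this union was 5657 bases, while its transcript with the longest coding sequence has 1970 bases. The ranks below thus depend on the length used. TMEM126B had the highest mean of the 10 genes in all 8 groups, with group means between 22.6 and 36.7 CPM per kb. Its libraries overlapped those of NDUFAF2 in EV cells and in shYY2 cells, where the mean of NDUFAF2 was 22.2 CPM per kb. NDUFAF6 was the least abundant, with group means between 1.22 and 2.20 CPM per kb. FOXRED1 was among the lower ones on this measure and ranked 7 to 9 of 10. Its mean per length was 5.34 ± 0.356 CPM per kb in ND tumors, 6.52 ± 0.0708 in EV cells, 5.80 ± 0.132 in the shControl of the YY2 experiment and 3.07 ± 0.0506 in the shControl of the FOXRED1 experiment (SD, n = 3). Its libraries overlapped those of NDUFAF4 in both tumor groups and in the shControl of the YY2 experiment, and in EV cells those of NDUFAF3. In shFOXRED1 cells they overlapped those of NDUFAF5, which ranked above it there.

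**Figure D1:**
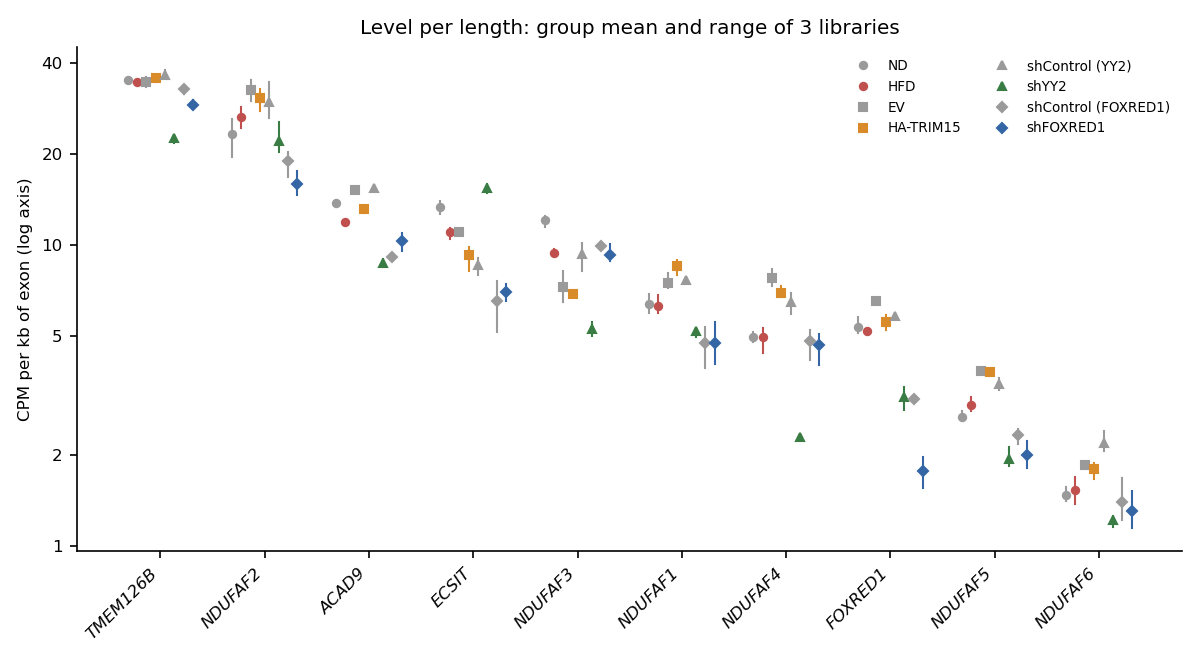
Level of each gene per length (y axis, CPM per kb of annotated exon, log axis) in the 8 groups, with points for group means and lines from the lowest to the highest of 3 libraries. By group mean, TMEM126B is highest and NDUFAF6 lowest in every group, and FOXRED1 lies between 1.78 and 6.52 CPM per kb.

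FOXRED1 was at 29.4, 28.8 and 29.3 CPM in the HFD tumors and at 28.7, 32.5 and 29.4 CPM in the ND tumors. The groups overlapped, and the log2 fold change was -0.06 (SE 0.06, 95% interval -0.18 to 0.06, edgeR adjusted p = 0.414). With HA-TRIM15 it was at 31.5, 33.1 and 29.5 CPM, against 36.6, 36.7 and 37.4 CPM with EV. All 3 HA-TRIM15 libraries lay below all 3 EV libraries, a change of -0.24 on the log2 scale (SE 0.05, edgeR adjusted p = 0.00509). With shYY2 it was at 19.0, 16.1 and 17.9 CPM, against 33.6, 32.1 and 32.6 CPM with shControl. This was 0.539 of the control level (log2 fold change -0.89, SE 0.06, edgeR adjusted p = 3.31e-09). The study drew FOXRED1 from a set of genes that it selected in part on the HA-TRIM15 and shYY2 data, so these changes are not independent of that choice.

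In the knockdown of FOXRED1 itself, the 3 shFOXRED1 libraries were at 10.1, 11.2 and 8.83 CPM and the 3 shControl libraries at 17.7, 17.2 and 17.3 CPM. FOXRED1 thus kept 0.581 of its control level (log2 fold change -0.78, SE 0.11, edgeR adjusted p = 4.06e-05), which is the check of the target. The starting level differed between experiments. The shControl libraries here held 17.4 ± 0.286 CPM, close to the 17.7 ± 1.5 CPM of shYY2 cells, while the shControl libraries of the YY2 experiment held 32.8 ± 0.749 CPM (SD, n = 3). These libraries were scaled separately, and the difference between the 2 controls was not tested.

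The other 9 factors were then compared between shFOXRED1 and its shControl. Over all 15730 genes tested, 16.8% were called higher and 19.7% lower. Of the 9, none was called higher, TMEM126B was called lower and 8 were not called in this fit, which did not pair libraries. At an unadjusted edgeR p under 0.05, NDUFAF2 lay below and ACAD9 above its control too. More genes pass this looser threshold than were called, and their share over all genes tested was not counted. The median log2 fold change of the 9 was -0.10, and that of all genes tested 0.01. The 95% intervals of the 9 ran from -0.48 to 0.36 at their outermost bounds, which is a fold of 0.719 to 1.28. The interval of FOXRED1, -1.03 to -0.54, did not reach any of theirs. In this fit, a rise of more than 1.28-fold thus lay outside the interval of each of the 9, while smaller changes lay inside some of them. Each interval holds for its gene alone, and the bound depends on the scaling. With library totals alone, the median of all genes moved from 0.01 to 0.07.

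TMEM126B (ENSG00000171204, chr11:85628573-85636539), a membrane protein of the MCIA complex, was at 68.4, 69.0 and 73.3 CPM with shFOXRED1 and at 76.5, 80.0 and 81.9 CPM with shControl. The groups did not overlap, and it fell by 0.18 on the log2 scale (SE 0.06, edgeR adjusted p = 0.0333). The call did not hold without shFOXRED1 replicate 1 (adjusted p = 0.119) or 2 (0.121) or without shControl replicate 2 (0.105) or 3 (0.118). ACAD9 (ENSG00000177646, chr3:128879596-128916067), an acyl-CoA dehydrogenase that serves the same complex, went the other way in value, with 47.4, 44.9 and 41.4 CPM against 40.1, 39.0 and 39.5 CPM. Its groups did not overlap either, but the change of 0.17 (SE 0.07) had an edgeR adjusted p of 0.0744. With the replicate number as a block, which the check of the pairing allowed in this experiment, ACAD9 was called higher (0.17, SE 0.06, edgeR adjusted p = 0.0310), so that 1 of the 9 was higher and 1 lower. ACAD9 was also called higher without shFOXRED1 replicate 3 (0.22, edgeR adjusted p = 0.0103). Upper-quartile scaling and library totals alone also called ACAD9 higher and lost the call of TMEM126B, with log2 fold changes of 0.21 and 0.23 for ACAD9 and of -0.15 and -0.12 for TMEM126B.

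The other MCIA genes were not called. NDUFAF1 was at 8.47 ± 1.36 CPM with shFOXRED1 and 8.44 ± 1.33 CPM with shControl (SD, n = 3; log2 fold change 0.02, 95% interval -0.31 to 0.35). ECSIT was at 16.5 ± 1.06 and 15.5 ± 2.98 CPM (0.09, -0.18 to 0.36). For the early factors the intervals were -0.29 to 0.10 for NDUFAF3, -0.31 to 0.24 for NDUFAF4, -0.45 to 0.01 for NDUFAF5 and -0.42 to 0.22 for NDUFAF6. The groups of each of these 4 genes overlapped. The group means of NDUFAF5, at 14.5 ± 1.48 and 16.8 ± 0.951 CPM, differed by more than the SD of either group (log2 fold change -0.22, edgeR adjusted p = 0.134), while those of NDUFAF4 and NDUFAF6 differed by less. The late factor NDUFAF2 was at 16.2 ± 1.51 against 19.2 ± 1.93 CPM (log2 fold change -0.24, 95% interval -0.48 to -0.01, edgeR adjusted p = 0.0943), and its groups overlapped. NDUFAF5 was called lower without shFOXRED1 replicate 3 (-0.30, edgeR adjusted p = 0.0365) and NDUFAF2 without shControl replicate 1 (-0.33, edgeR adjusted p = 0.0466).

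**Figure D2:**
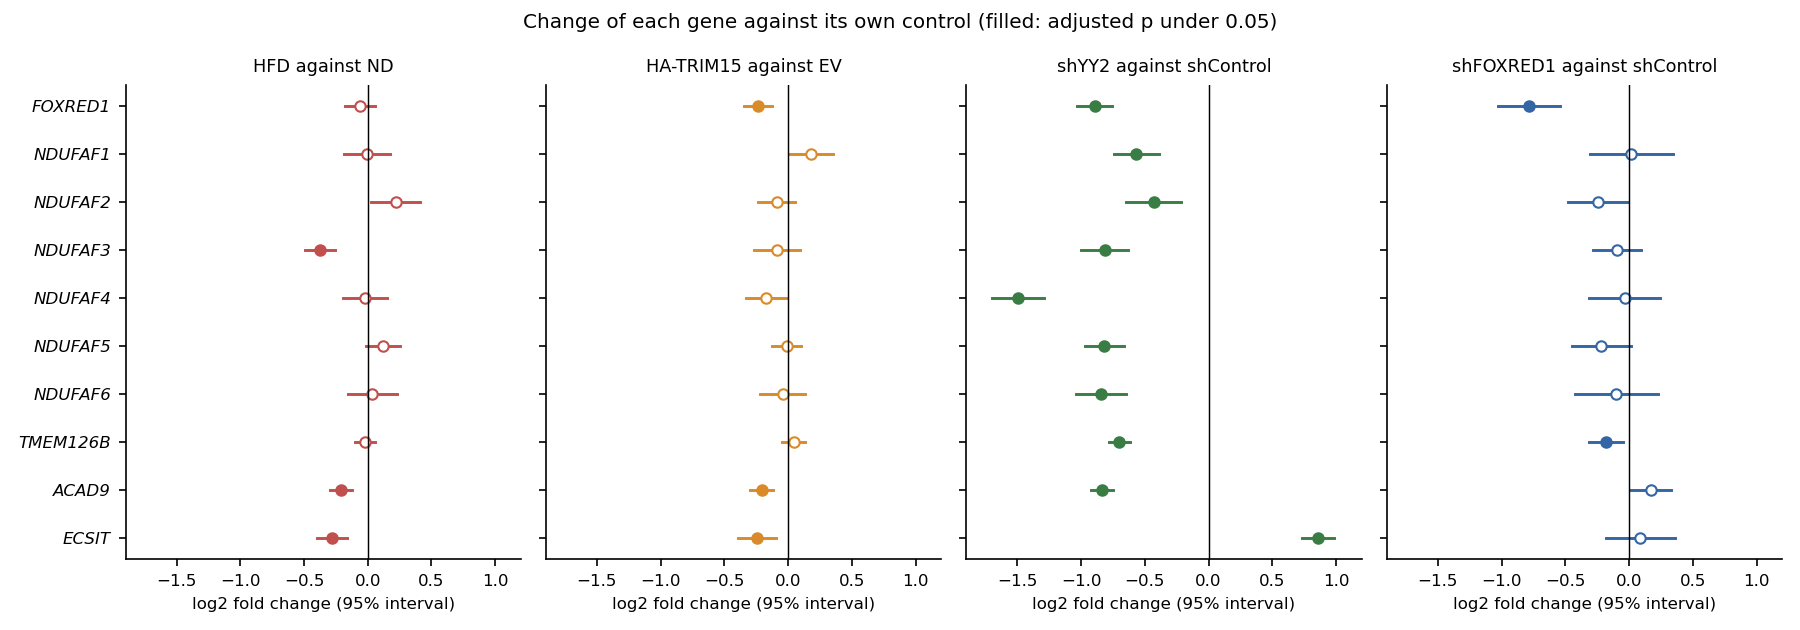
log2 fold change of the 10 genes (x axis) against the own control in the 4 experiments, with 95% intervals as lines and filled points for an adjusted p under 0.05. With shYY2 9 genes lie left of 0 and ECSIT right of it, while with shFOXRED1 FOXRED1 at -0.78 stands apart from the other 9.

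With shYY2, in which FOXRED1 fell by a like amount, the other factors changed widely. Here 36.8% of the 16006 genes tested were called higher and 38.1% lower, so that a call by itself is common. Of the 9 factors beside FOXRED1, 8 were called lower and ECSIT was called higher, with a median log2 fold change of -0.82 against -0.01 over all genes tested. The same calls were made under every scaling, filter and left-out library tried.

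NDUFAF4 (ENSG00000123545, chr6:96889313-96897881), an early factor of the Q module, fell furthest of the 10. It was at 5.72, 5.88 and 5.95 CPM with shYY2 against 16.9, 14.9 and 17.6 CPM with shControl, which is 0.355 of the control level (log2 fold change -1.49, SE 0.09, edgeR adjusted p = 7.24e-10). Its partner NDUFAF3 (ENSG00000178057, chr3:49020459-49023495) was at 12.1, 12.8 and 13.5 CPM against 23.4, 24.7 and 19.9 CPM (-0.82, SE 0.09, edgeR adjusted p = 3.47e-07). Both genes thus fell, and in neither did the groups overlap, though the share of all genes tested without overlap was not counted. NDUFAF5 (ENSG00000101247, chr20:13784950-13821582) fell from 24.9 ± 1.12 to 14.1 ± 1.12 CPM (-0.82, SE 0.07, edgeR adjusted p = 3.86e-08). NDUFAF6 (ENSG00000156170, on chromosome 8) fell from 14.1 ± 1.18 to 7.82 ± 0.337 CPM (-0.84, SE 0.09, edgeR adjusted p = 5.94e-07).

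In the MCIA complex, ACAD9 was at 38.8, 36.4 and 37.5 CPM with shYY2 against 66.5, 67.4 and 67.3 CPM with shControl (log2 fold change -0.83, SE 0.04, edgeR adjusted p = 3.07e-11). TMEM126B fell from 88.7 ± 2.85 to 54.7 ± 1.75 CPM (-0.70, SE 0.04, edgeR adjusted p = 1.5e-10). NDUFAF1 (ENSG00000137806, chr15:41387349-41402519), which is needed for the membrane arm, fell from 13.7 ± 0.307 to 9.24 ± 0.317 CPM (-0.57, SE 0.08, edgeR adjusted p = 1.24e-05). ECSIT (ENSG00000130159, chr19:11505916-11529174), which is also known as an adaptor of Toll-like receptor signaling, was at 36.9, 37.8 and 35.3 CPM against 20.5, 21.5 and 18.9 CPM. It rose 1.81-fold (0.86, SE 0.06, edgeR adjusted p = 2.32e-09), so the 4 genes of this complex did not move together. The late factor NDUFAF2 (ENSG00000164182, chr5:60945129-61153037) changed least, from 30.4 ± 4.42 to 22.5 ± 3.07 CPM (-0.43, SE 0.10, edgeR adjusted p = 0.00109). In 1 shYY2 library it reached 26.1 CPM and in 1 shControl library it was at 26.9 CPM, so the groups nearly met.

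YY2 and YY1 are zinc finger proteins that bind the same core sequence. Since most members moved together with shYY2, the letters GCCAT were searched on both strands in the windows from 250 bases before to 50 bases after each start site, as given by RefSeq (GRCh38.p14). Windows were given for 8 of the 10 members, but not for FOXRED1 and NDUFAF6. The FOXRED1 promoter, at which the study reports YY2 binding, was thus not searched. Of the 8 windows, 4 held a match, as did 37.8% of the 35114 windows of all genes. The longer form GCCATNTT was in none of the 8 and in 6.58% of all windows. Shown are the windows of the gene that fell furthest, the gene that rose and the gene with the most matches, in the direction of transcription, with the matches on either strand in capitals. Those of ECSIT and NDUFAF3 use start sites inside the GENCODE gene bounds:
NDUFAF4 (chr6:96897842-96898141, minus strand): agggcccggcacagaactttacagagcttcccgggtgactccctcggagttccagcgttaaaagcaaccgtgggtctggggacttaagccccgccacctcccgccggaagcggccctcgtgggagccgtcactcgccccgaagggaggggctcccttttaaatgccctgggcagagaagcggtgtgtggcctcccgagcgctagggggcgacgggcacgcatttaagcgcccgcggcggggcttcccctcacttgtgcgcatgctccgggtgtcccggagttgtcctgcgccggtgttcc
ECSIT (chr19:11528816-11529115, minus strand): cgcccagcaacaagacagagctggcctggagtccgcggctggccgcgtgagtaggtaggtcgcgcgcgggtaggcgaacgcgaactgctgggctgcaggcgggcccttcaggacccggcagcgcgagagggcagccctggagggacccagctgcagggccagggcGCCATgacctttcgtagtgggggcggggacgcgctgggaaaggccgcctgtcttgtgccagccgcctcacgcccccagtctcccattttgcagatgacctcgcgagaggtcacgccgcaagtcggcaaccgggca
NDUFAF3 (chr3:49021871-49022170, plus strand): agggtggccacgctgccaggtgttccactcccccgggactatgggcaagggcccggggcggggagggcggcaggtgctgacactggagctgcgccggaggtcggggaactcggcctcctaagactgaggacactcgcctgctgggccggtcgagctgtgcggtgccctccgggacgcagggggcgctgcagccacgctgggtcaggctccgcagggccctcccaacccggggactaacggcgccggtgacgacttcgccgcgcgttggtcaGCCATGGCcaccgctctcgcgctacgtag
NDUFAF4, with the largest fall, had no match, ECSIT had 1 match beginning 85 bases before the start site, and NDUFAF3 had 2 that overlap, beginning 22 and 25 bases into the transcript. NDUFAF2 and NDUFAF5 had 1 match each and NDUFAF1, TMEM126B and ACAD9 none. A match is a run of letters and says nothing about binding in these cells.

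Both knockdowns left FOXRED1 at a like share of its own control, and the next comparison asked whether the other factors then changed alike. The difference between the shYY2 and the shFOXRED1 effects was tested in 1 model of the 12 libraries, in which 54.4% of the 17146 genes tested were called. For FOXRED1 the difference was -0.11 (SE 0.13, 95% interval -0.37 to 0.15, edgeR adjusted p = 0.480). Of the other 9 factors, 8 were called as changed differently, and NDUFAF2 was not (-0.19, 95% interval -0.52 to 0.14, edgeR adjusted p = 0.325). The largest differences were -1.46 for NDUFAF4 (SE 0.17, edgeR adjusted p = 1.38e-07), -1.01 for ACAD9 (SE 0.08, edgeR adjusted p = 7.41e-10) and, in the other direction, 0.77 for ECSIT (SE 0.14, edgeR adjusted p = 0.000109). The other 5 called differences ran from -0.74 for NDUFAF6 to -0.52 for TMEM126B. The same 8 genes were called in every fit that left out 1 of the 12 libraries. The 2 experiments used separate plasmids and controls, and a difference between the experiments cannot be told apart from one between the targets.

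**Figure D3:**
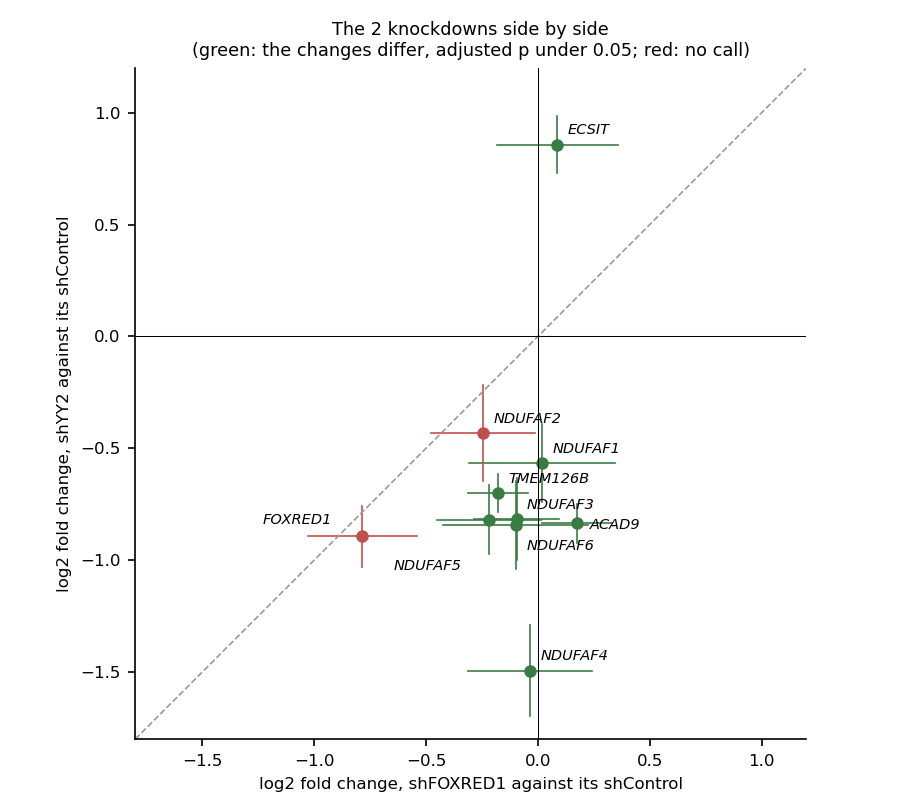
log2 fold change of the 10 genes with shYY2 (y axis) against that with shFOXRED1 (x axis), with 95% intervals and a dashed line of equal change. FOXRED1 at -0.78 and -0.89 and NDUFAF2 lie near that line without a called difference, and the other 8 lie off it, NDUFAF4 by 1.46.

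With HA-TRIM15, 12.5% of the 15745 genes tested were called higher and 9.53% lower. Beside FOXRED1, ACAD9 and ECSIT of the 9 factors were called lower, none was called higher, and the median of the 9 was -0.09 (all genes tested, -0.01). ACAD9 was at 58.8, 55.1 and 56.5 CPM with HA-TRIM15 against 64.4, 67.6 and 65.3 CPM with EV (log2 fold change -0.21, SE 0.04, edgeR adjusted p = 0.00289). ECSIT was at 23.3, 23.2 and 19.4 CPM against 26.4, 25.7 and 26.1 CPM (-0.24, SE 0.07, edgeR adjusted p = 0.0221). In both, no HA-TRIM15 library reached an EV library, but the share of all genes tested with such groups was not counted. The call of ECSIT did not hold without HA-TRIM15 replicate 3 (adjusted p = 0.0915) or without EV replicate 1 (0.0754), 2 (0.0573) or 3 (0.0707). The direction of ECSIT was thus lower here and higher with shYY2. NDUFAF1 was at 15.3 CPM on average with HA-TRIM15 and 13.4 CPM with EV (0.18, edgeR adjusted p = 0.126), and was called higher without HA-TRIM15 replicate 1 (0.23, edgeR adjusted p = 0.0429). NDUFAF4 was at 17.6 and 19.8 CPM (-0.17, edgeR adjusted p = 0.1), and its groups did not overlap.

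In the xenografts, 25.6% of the 17012 genes tested were called higher in HFD than in ND tumors and 23.9% lower. Of the 9 factors beside FOXRED1, NDUFAF3, ECSIT and ACAD9 were called lower in HFD and none higher, with a median of -0.02 (all genes tested, -0.01). NDUFAF3 was at 22.8, 23.5 and 22.3 CPM in HFD against 30.4, 30.2 and 27.9 CPM in ND tumors (log2 fold change -0.38, SE 0.05, edgeR adjusted p = 2.77e-05). ECSIT was at 24.9, 26.9 and 26.7 CPM against 31.9, 33.3 and 29.9 CPM (-0.28, SE 0.06, edgeR adjusted p = 0.000480). ACAD9 was at 51.8, 50.3 and 52.4 CPM against 57.7, 60.9 and 59.9 CPM (-0.21, SE 0.04, edgeR adjusted p = 0.000536). In none of these 3 genes did the groups overlap, but the share of all genes tested without overlap was not counted. The means of the other 6 factors differed by at most 0.22 on the log2 scale, the value of NDUFAF2 (edgeR adjusted p = 0.0531). Scaling by library totals alone moved the median of all genes from -0.01 to -0.12 and that of the 10 members from -0.02 to -0.13, and FOXRED1 (-0.17) and TMEM126B (-0.13) were then called lower too. NDUFAF2 was called higher without HFD replicate 1 (0.28, edgeR adjusted p = 0.0305) or without ND replicate 3 (0.31, edgeR adjusted p = 0.00938). In tumors, fewer cells of a type and less RNA per cell cannot be told apart. Whether mouse reads were removed is not given in the sources used here.

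Several members share a start region or exons with a neighbour, and reads there could be counted to either gene if strand was not used, which the sources used here do not settle. FOXRED1 starts head to head with SRPRA, the alpha subunit of the receptor for the signal recognition particle, and their exons overlap by 90 bases. SRPRA was lower in HFD tumors (-0.12, edgeR adjusted p = 0.0179), in which FOXRED1 was not called. It was at 124 ± 2.78 CPM with HA-TRIM15 and 122 ± 0.614 CPM with EV (log2 fold change 0.03, edgeR adjusted p = 0.548). SRPRA fell by 0.26 with shYY2 (edgeR adjusted p = 2.99e-06) and rose by 0.27 with shFOXRED1 (edgeR adjusted p = 0.00121), in which FOXRED1 fell. NDUFAF3 shares 527 exonic bases with DALRD3, which acts in tRNA modification. DALRD3 rose by 0.41 with shYY2 (edgeR adjusted p = 5.16e-05) while NDUFAF3 fell, and in the xenografts it was at 22.0 ± 0.763 and 21.5 ± 1.58 CPM (0.02, edgeR adjusted p = 0.788).

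NDUFAF5 and NDUFAF2 start within 64 and 56 bases of ESF1, a nucleolar protein of ribosome production, and of ERCC8, a DNA repair gene. With shYY2, ESF1 fell by 0.93 (edgeR adjusted p = 1.43e-09) and ERCC8 by 0.63 (edgeR adjusted p = 4.22e-07), as did both of their partners. With shFOXRED1, ESF1 fell by 0.29 (edgeR adjusted p = 0.0162) and ERCC8 by 0.64 (edgeR adjusted p = 0.000270), where NDUFAF5 and NDUFAF2 were not called. ESF1 was higher in HFD tumors (0.53, edgeR adjusted p = 0.000104) and with HA-TRIM15 (0.12, edgeR adjusted p = 0.0424), where NDUFAF5 was not called. NDUFAF6 overlaps CCNE2, the gene of cyclin E2, and TP53INP1, a stress gene induced by p53, without shared exonic bases. With shYY2 CCNE2 fell by 2.40 (edgeR adjusted p = 1.34e-11) and TP53INP1 rose by 2.57 (edgeR adjusted p = 2.58e-14). TP53INP1 was also higher with shFOXRED1 (0.71, edgeR adjusted p = 3.80e-06), in HFD tumors (0.35, edgeR adjusted p = 0.000261) and with HA-TRIM15 (0.42, edgeR adjusted p = 0.0451). NDUFAF6 and CCNE2 were not called there. TMEM126B starts 651 bases from DLG2, a scaffold gene that rose by 1.80 from 1.49 ± 0.446 CPM with shYY2 (edgeR adjusted p = 2.35e-07). CCNE2 thus fell as NDUFAF6 did, while TP53INP1 and DLG2 rose where NDUFAF6 and TMEM126B fell. ACAD9 shares 454 exonic bases with CFAP92 and ECSIT 8 bases with ZNF653, and both neighbours had group means of at most 4.75 CPM. ZNF653 fell by 0.42 with shYY2 (edgeR adjusted p = 0.0190), in which ECSIT rose, and CFAP92 was called in no experiment.

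The rest of complex I was described from lists of further assembly factors and of the nuclear subunits. Its 7 mitochondrially encoded subunits were listed at 0 in all 24 libraries and are not covered. With shFOXRED1, 1 of 13 further assembly factors was called lower and none higher, with a median of -0.08. It was NUBPL, which carries iron-sulfur clusters to complex I (log2 fold change -0.56, SE 0.11, edgeR adjusted p = 0.000813). Of 35 subunits tested, 7 were called lower and 1 higher, with a median of -0.06. Over all genes tested, 19.7% were lower and 16.8% higher. In the N module NDUFS1, which holds iron-sulfur clusters, fell from 137 ± 3.16 to 103 ± 0.633 CPM (-0.40, edgeR adjusted p = 1.85e-05), and the low NDUFV2 rose from 1.69 ± 0.333 to 2.86 ± 0.665 CPM (0.74, edgeR adjusted p = 0.0385). None of the 6 Q module subunits was called, and 6 of 21 in the membrane arm were lower, NDUFB3 most (-0.38, edgeR adjusted p = 0.0135).

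With shYY2, 11 of the 13 further assembly factors were called lower and 1 higher, with a median of -0.36. Over all genes tested, 38.1% were lower and 36.8% higher. TMEM70, which serves complex I and ATP synthase, fell most (-1.51, SE 0.08, edgeR adjusted p = 9.91e-11), and DMAC2, a factor of the distal membrane arm, rose (0.19, SE 0.06, edgeR adjusted p = 0.00869). Of the 34 subunits tested, 17 were lower and 9 higher, and their median of -0.12 lay nearer to that of all genes. Factors of the other complexes moved too: 9 of 12 for complexes II, III and V were lower and 2 higher (median -0.52), and 11 of 20 for complex IV were lower and 4 higher (median -0.36). The largest falls were in BCS1L, a complex III chaperone (-1.26, edgeR adjusted p = 6.57e-11), and COA7 of complex IV (-1.72, edgeR adjusted p = 1.55e-11). Among 12 regulators of mitochondrial biogenesis, YY1 included, 9 were lower and 1 higher. They ran from PPRC1, a coactivator, at -1.48 (edgeR adjusted p = 3.19e-14) to PPARGC1A at 0.44 (edgeR adjusted p = 0.00142). Regulators were called elsewhere too, with 2 higher and 2 lower with shFOXRED1 and 1 higher and 2 lower with HA-TRIM15. In HFD tumors, 5 were higher and 2 lower. The shares over all genes tested are those given for each experiment.

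With HA-TRIM15, 1 of 13 further assembly factors was called lower, DMAC1 (log2 fold change -0.42, SE 0.10, edgeR adjusted p = 0.00833), and none higher. Over all genes tested, 9.53% were lower and 12.5% higher. Of 34 subunits, 11 were lower and none higher (median -0.14). They included NDUFS3 of the Q module (-0.29, edgeR adjusted p = 0.000630), NDUFV1 of the N module (-0.22, edgeR adjusted p = 0.00271) and NDUFA11 of the membrane arm (-0.30, edgeR adjusted p = 0.0487). In HFD tumors, 2 of 13 further assembly factors were higher, NDUFAF7 most (0.18, edgeR adjusted p = 0.0110), and DMAC2 was lower (-0.22, edgeR adjusted p = 0.00185). Of 36 subunits, 5 were higher and 7 lower (median -0.03), where 25.6% of all genes tested were higher and 23.9% lower.

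The response to lost mitochondrial function was looked at in 12 tested genes for mitochondrial chaperones and the integrated stress response. Over all genes tested, 16.8% were higher and 19.7% lower with shFOXRED1, and 36.8% and 38.1% with shYY2. These shares were 12.5% and 9.53% with HA-TRIM15 and 25.6% and 23.9% in HFD tumors. With shFOXRED1, 4 of the 12 genes were higher and 4 lower (median -0.11). ATF5, a transcription factor of the mitochondrial unfolded protein response, rose from 10.3 ± 1.06 to 23.8 ± 1.77 CPM (log2 fold change 1.2, SE 0.11, edgeR adjusted p = 2.28e-07). ASNS, asparagine synthetase and a target of the stress response factor ATF4, fell from 25.8 ± 1.35 to 12.5 ± 0.892 CPM (-1.04, SE 0.10, edgeR adjusted p = 3.67e-07), so the list had no common direction. With shYY2, 2 were higher and 8 lower (median -0.52), and the mitochondrial chaperone HSPA9 fell most (-1.28, edgeR adjusted p = 1.69e-15). With HA-TRIM15, 5 were higher and 3 lower, among them DDIT3 (0.62, edgeR adjusted p = 1.27e-05) and HSPE1 (-0.27, edgeR adjusted p = 0.00240). In HFD tumors, 1 was higher, HSPD1 (1.09, edgeR adjusted p = 2.35e-12), and 4 were lower, GDF15 most (-1.34, edgeR adjusted p = 5.94e-13).

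Finally, genes were ranked by how near their log2 fold changes came to those of FOXRED1 in the 3 experiments in which it was not targeted, as a Euclidean distance over 9021 genes with at least 10 CPM on average in each experiment. The nearest were PTGES2, a prostaglandin E synthase (distance 0.0392), NCAPH, a condensin subunit (0.0440), F8A1 (0.0556), KLHDC4 (0.0596) and FUT11, a fucosyltransferase (0.0615). F8A1 has near-identical copies, so its counts are uncertain. In the experiment left out of the distance, where FOXRED1 fell by 0.78, PTGES2 rose by 0.33 (edgeR adjusted p = 0.00125), NCAPH fell by 0.81 (edgeR adjusted p = 2.00e-06) and the values of the other 3 were 0.12, 0.02 and 0.12 without a call. Of the members, ACAD9 came nearest to FOXRED1, at rank 78 with a distance of 0.163, and ECSIT came last at rank 8395. NDUFAF1 and NDUFAF6 were under 10 CPM in an experiment and were not ranked.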

How the data were processed

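The authors deposited 4 tables of raw counts per Ensembl gene ID, 1 for each experiment. Poly-A RNA was sequenced. The submitters' processing notes name the builds hg38 and mm10 with no role, and the aligner, the counter and the handling of strand are not given in the sources used here. IDs were matched to symbols with a separate list of gene names, and exon lengths, positions and neighbours were taken from GENCODE 29. Genes were filtered with filterByExpr (minimum count 10), scaled with TMM and tested in each experiment with edgeR 4.0.16 in R 4.3.3 (quasi-likelihood test, Benjamini-Hochberg adjusted p under 0.05 over all genes tested, two-sided). Tested on simulated data, the fits recovered most of the larger changes. Of the smallest, which were 1.2-fold, they recovered 44.8% for HFD against ND, 50.7% with HA-TRIM15 and 44.8% with shYY2. With shFOXRED1 they recovered 16.4% of these and between the knockdowns 13.4%. Far fewer genes were changed in the simulation than were called in the data, which makes the adjusted threshold stricter there. These rates thus do not tell how many such changes the fits found in the data. The share of false calls in the simulation was above the threshold in every comparison. A gene not called may still have changed a little. An exact permutation test of 3 against 3 libraries cannot go below 0.1. Alternatives were DESeq2 1.42.0, other scalings and filters, a replicate block and leaving out each library.

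Same-numbered libraries of shFOXRED1 and its control deviated together over genes of at least 10 CPM (correlations 0.211, 0.125 and 0.410), so the numbers were taken to pair them, although over all genes tested the correlations were 0.0318, 0.0125 and 0.0775. In the other experiments at least 1 correlation was under 0.1. No source says why numbers would pair libraries, and the main fits and the figures did not pair them. The chi-square per gene between replicates was 1.47 to 7.94, so none counted as a repeat deposit. The highest values, 7.94 and 6.90, were those of shFOXRED1 replicate 3 against replicates 1 and 2, which gave 2.16 between themselves.

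Named were all members, their protein-coding neighbours that overlap or start within 1000 bases head to head, and the 5 genes nearest to FOXRED1 in pattern. Neighbours of other types, such as pseudogenes and microRNAs, were left out. Of the called genes that rose or fell most within a list, only some were named, so those given are a selection. The members and lists were chosen with earlier results of these data known.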

Additional observations from a re-analysis of the deposited data

How the results depend on the processing

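With shYY2 and in the test between the knockdowns, every member kept its direction and its side of the threshold in each alternative run. In HFD tumors, library totals alone gave 2800 genes higher, 6415 lower and 5 members lower, and 1 member, NDUFAF2, was higher with no filter (0.24) and with the replicate block (0.19, edgeR adjusted p = 0.0430). With shFOXRED1, 1 member was higher and 1 lower under upper-quartile scaling and under library totals, 1 was lower with no filter and 1 higher with the replicate block. The block changed no other call of a member. The share of calls that were higher went from 51.7% to 39.8% (upper quartile) and 30.4% (totals) in HFD tumors, from 56.8% to 40.6% (totals) with HA-TRIM15 and from 46.1% to 57.3% (totals) with shFOXRED1. Signs turned only for values that were not called: in HFD tumors NDUFAF6 was -0.0220 (upper quartile) and -0.0745 (totals) and NDUFAF1 0.0134 (no filter), and with shFOXRED1 NDUFAF4 was 0.0215 (totals). The cause was not tested. Leaving out each library gave these ranges. In HFD tumors 0 to 1 members were higher, and log2 fold changes ran from -0.0891 to 0.0110 (FOXRED1), -0.0843 to 0.0540 (NDUFAF1), -0.0684 to 0.0720 (NDUFAF4), -0.0374 to 0.123 (NDUFAF6) and -0.0273 to 0.00316 (TMEM126B). With HA-TRIM15, 1247 to 2594 genes were higher and 787 to 2506 lower, 0 to 1 members were higher, and values ran from -0.164 to 0.00938 (NDUFAF3), -0.0280 to 0.00677 (NDUFAF5) and -0.0730 to 0.00442 (NDUFAF6). The highest count lower, 2506, came without HA-TRIM15 replicate 1 and the lowest, 787, without EV replicate 3. With shFOXRED1, 0 to 1 members were higher and 1 to 3 lower, and values ran from -0.112 to 0.117 (NDUFAF1), -0.141 to 0.0585 (NDUFAF4), -0.216 to 0.0473 (NDUFAF6) and -0.0562 to 0.208 (ECSIT). Where a member's interval includes 0, these 3 libraries a group did not settle its direction.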
